A study of Mus musculus with 16 samples.

Results

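The thin filament genes described here are the 6 that encode the main thin filament proteins of striated muscle: Tnnt2, Tnnc1 and Tnni3 for the cardiac troponin subunits, Tpm1 for alpha-tropomyosin, and Actc1 and Acta1 for cardiac and skeletal alpha-actin. They were chosen by name, as 6 of 21887 protein-coding genes. A peak was assigned to a gene when it overlapped the annotated gene span extended by 1 kb on each side. In all, 18 peaks were assigned to 4 of the 6 genes, where 38.3% of all protein-coding genes had a peak in at least 1 library, and these 18 merged into 5 regions.

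END-seq maps DNA double-strand breaks by sequencing from the broken ends. The libraries came from Langendorff-isolated cardiac myocytes of 3 Myh6-Cre:LmnaF/F mice and 3 wild-type mice. In the first group (cKO below), Cre under the Myh6 promoter, which is active in cardiac myocytes, acts on floxed Lmna, the gene of lamins A and C. In the second (WT below) no transgene or floxed allele is named. The labels state neither age nor sex, and no group carries Cre with intact Lmna, so effects of Cre and of Lmna loss cannot be told apart. A list of break peaks measures no expression, so the labelled cell type could not be checked against its markers. The series asks whether transcription is a source of such breaks.

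The lists differed widely in length, from 13630 (cKO 2) to 29743 peaks (cKO 1) in cKO and from 1345 (WT 1) to 15458 (WT 2) in WT. Read depth is unknown, so breaks below the caller's reach may be missed in any list. Peaks of the list labelled cKO 1 carry names beginning with WT-4, as do those of WT 3. The main counts and differences at the 6 genes that change without cKO 1 are therefore also given without it. Scaled values, mean percentiles and shortened lists were not redone without cKO 1, and values of other single genes are given by library. WT 1 had the shortest list, and it had no peak at any of the 6 genes.

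Thin filaments are polymers of actin along which tropomyosin lies, with a troponin complex at regular intervals. Calcium binds troponin C, troponin I then releases its hold on actin, and troponin T passes the change on to tropomyosin, which moves and lets myosin heads attach. In adult heart Actc1 is the main sarcomeric actin, and Acta1 is the skeletal isoform that the fetal heart and the stressed heart also express.

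Tnnt2, the gene of the subunit that anchors troponin to tropomyosin, held the most peaks. It lies on chromosome 1 from 135836315 to 135852268 (mm10, plus strand, 15.95 kb). It had 2 peaks in cKO 1, 2 in cKO 2 and 1 in cKO 3, against 0 in WT 1 and 1 each in WT 2 and WT 3. The groups overlapped, since cKO 3, WT 2 and WT 3 each had a single peak. It averaged 1.67 ± 0.577 peaks in cKO against 0.667 ± 0.577 in WT (n = 3 each, SD), with a two-sided p of 0.3 by the exact permutation test over the 20 assignments of libraries, where 0.1 is the smallest possible. Without cKO 1 the difference was 0.833 peaks (exact permutation p = 0.6). Adjusted over the 8383 genes with a peak in any list, the exact permutation p was 1.

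The region near the 3′ end of Tnnt2, from 135850468 to 135850712, was found in every library but WT 1; 6.83% of all protein-coding genes were hit in just these 5. The authors' fold of the peak over the background of its own library was 42.1 in cKO 1, 31.6 in cKO 2 and 37.4 in cKO 3, against 32.8 in WT 2 and 20.1 in WT 3. Ranked by fold within each list, these peaks were at percentiles 92.4, 84.1 and 91.2 in cKO and 86.9 and 79.7 in WT. They were thus among the stronger peaks of all 5 lists. Their summits lay 14.4 kb from the start of the gene and 1.57 to 1.58 kb before its end. The other region (the 5′ region), from 135838849 to 135839026, was found in cKO 1 and cKO 2 alone, with folds of 31.3 and 14.6 at percentiles 82.2 and 45.3. It lay 2.55 kb inside the gene and 11.4 kb from the first region. Without cKO 1 it would rest on a single library.

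Tnnc1, the gene of the calcium-binding subunit, had 1 peak in every library but WT 1, all at a single site upstream of the gene. The gene lies on chromosome 14 from 31208312 to 31211729 (plus strand, 3.42 kb) and the region from 31207279 to 31207561. The fold was 47.5 in cKO 1, 37.0 in cKO 2 and 48.6 in cKO 3, against 42.6 in WT 2 and 29.2 in WT 3. Within the lists these were at percentiles 96.0, 91.4 and 97.6 in cKO and 94.3 and 89.99 in WT. It had the highest fold among the 5 regions in each of the 5 lists that held it. The number of peaks averaged 1 ± 0 in cKO against 0.667 ± 0.577 in WT (n = 3 each, SD; exact permutation p = 1), the difference being WT 1.

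The Tnnc1 site lies between protein-coding genes, the only kind of gene examined here. It lies 751 bp before the annotated start of Tnnc1 and 453 bp beyond that of Nisch, a gene on the opposite strand that runs in the other direction, its span 1485 bp from that of Tnnc1. Because it lies outside the Tnnc1 span, its assignment to Tnnc1 rests on the 1 kb extension, which takes in Nisch as well, and with the gene span alone Tnnc1 had no peak in any library. The summits lay 766 to 772 bp before the Tnnc1 start in the 5 libraries.

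Tnni3, the gene of the inhibitory subunit, had 1 peak in cKO 1 and 1 in WT 2, and none in the other 4 lists. It lies on chromosome 7 from 4518305 to 4522718 (minus strand, 4.41 kb), 214 bp from the span of Dnaaf3, a gene needed for assembly of ciliary dynein. The region, from 4521057 to 4521205, had folds of 22.1 in cKO 1 and 22.8 in WT 2, at percentiles 67.0 and 73.7. Its summits lay 1.63 to 1.64 kb inside the gene. Each genotype had a mean of 0.333 ± 0.577 peaks (n = 3 each, SD; exact permutation p = 1), and without cKO 1 the site was left in WT 2 alone.

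**Figure D1:**
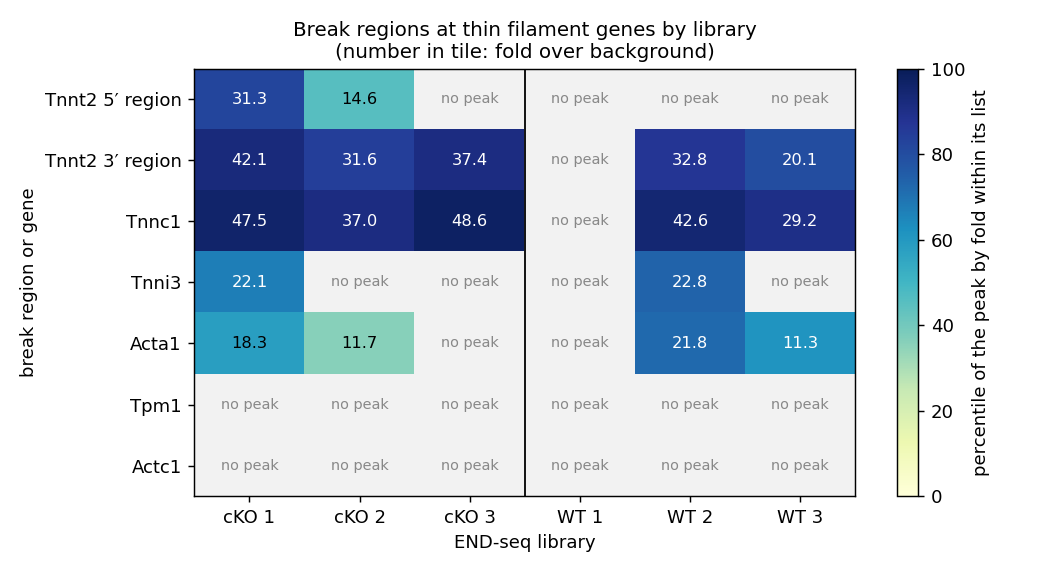
Tiles show the 5 break regions, and the 2 genes without one, against the 6 END-seq libraries, with cKO left of WT. Colour gives the percentile of the peak by fold within its own list and the number its fold over background, from 48.6 at Tnnc1 in cKO 3 down to 11.3 at Acta1 in WT 3; the column of WT 1 is empty.

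Tpm1 had no peak in any of the 6 lists, although at 27.1 kb it is the longest of the 6 genes. It lies on chromosome 9 from 67022590 to 67049672 (minus strand) and encodes the coiled coil that covers the myosin sites on actin. The nearest peak was 32.7 kb away in cKO 1, 140.0 kb in cKO 2 and 48.5 kb in cKO 3, against 1102 kb in WT 1, 32.7 kb in WT 2 and 196 kb in WT 3. Protein-coding genes without a peak had median distances of 30.5, 69.6 and 40.3 kb in the 3 cKO lists and 951, 57.5 and 108 kb in the 3 WT lists. The gap around Tpm1 was therefore longer than the median in every list but WT 2. It still lay between the quartiles of these genes in cKO 1 (12.7 to 62.2 kb), in cKO 3 (16.9 to 81.2 kb) and in the 3 WT lists. In cKO 2 it was just above the upper quartile of 139.4 kb.

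Actc1, the gene of the main actin of the heart, also had no peak in any list. It lies on chromosome 2 from 114047282 to 114052875 (minus strand, 5.59 kb). The nearest peak was 83.7 kb away in cKO 1, 177 kb in cKO 2 and 201 kb in cKO 3, against 1109 kb in WT 1, 201 kb in WT 2 and 319 kb in WT 3. All 6 distances were above the medians just given. Unlike those of Tpm1, they were also above the upper quartile of genes without a peak in every list but WT 1. These quartiles were 62.2, 139.4 and 81.2 kb in the 3 cKO lists, and 120 kb in WT 2 and 225 kb in WT 3. In WT 1 the upper quartile was 1925 kb.

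Acta1, the skeletal actin gene, was hit in cKO 1, cKO 2, WT 2 and WT 3. It lies on chromosome 8 from 123891758 to 123894775 (minus strand, 3.02 kb) and is the shortest of the 6. The region, from 123892388 to 123892707, had folds of 18.3 in cKO 1 and 11.7 in cKO 2, against 21.8 in WT 2 and 11.3 in WT 3. These were at percentiles 58.0 and 36.1 in cKO and 71.9 and 61.0 in WT, lower than at the Tnnt2 3′ region and Tnnc1 in each of these lists. The summits lay 2.23 to 2.24 kb from the start of the gene and 0.774 to 0.787 kb before its end. Both genotypes had a mean of 0.667 ± 0.577 peaks (n = 3 each, SD; exact permutation p = 1), and without cKO 1 the difference was -0.167 (exact permutation p = 1). The coding sequences of the actin genes are closely alike, and no label or header says how reads that map to several genes were treated. The assignment of these peaks to Acta1, and the absence of peaks at Actc1 and other actin genes, carry that uncertainty.

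**Figure D2:**
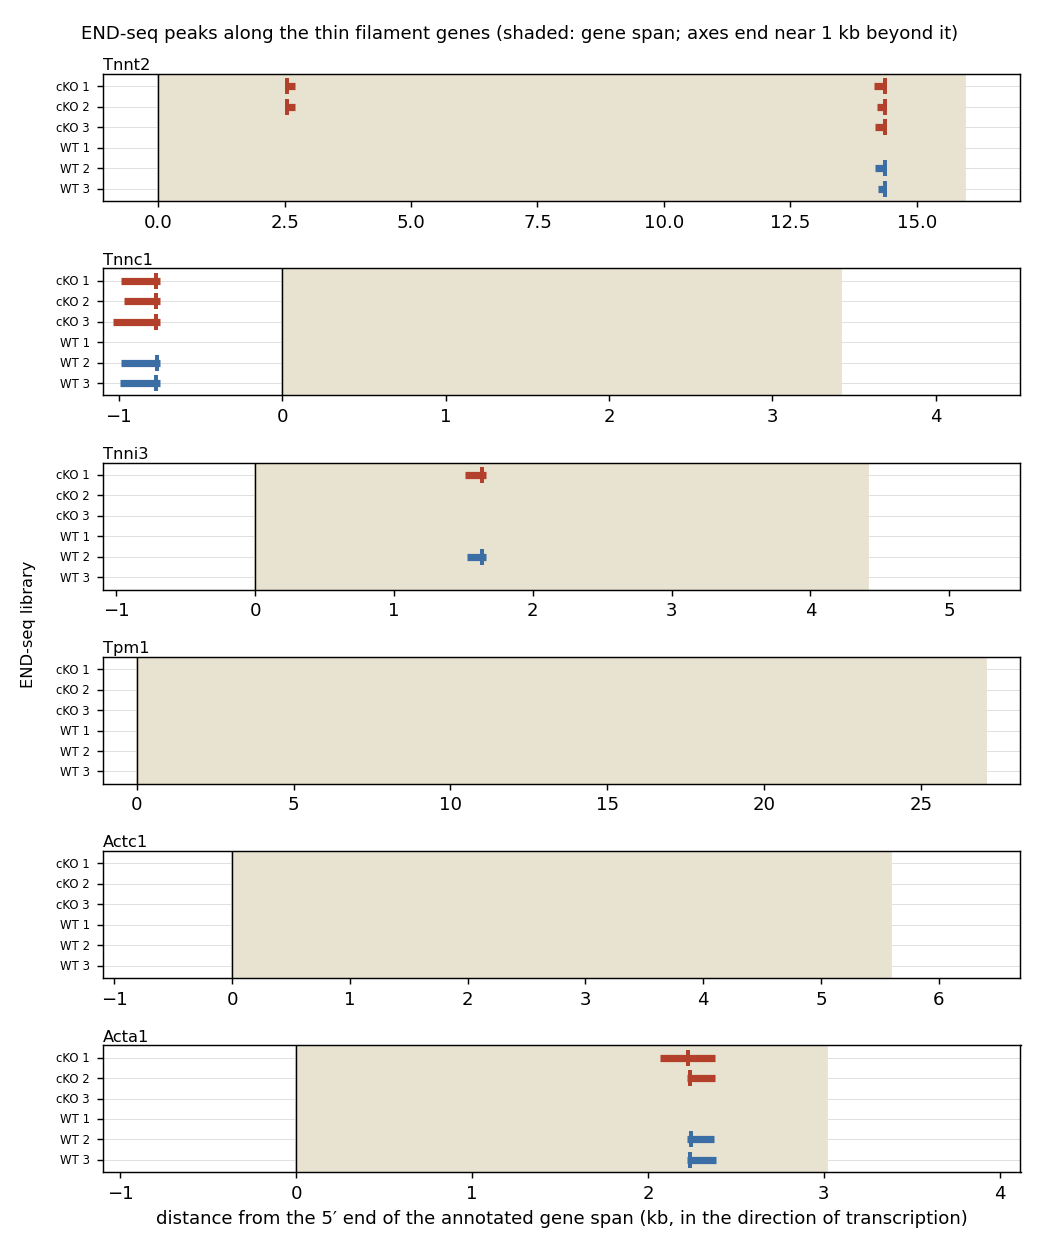
Each panel is a gene drawn in the direction of transcription, with the shaded span starting at 0 kb and each library as a line, cKO above WT; bars are peaks and ticks their summits. Peaks of different libraries stack at the same positions in Tnnt2, Tnnc1, Tnni3 and Acta1, and the panels of Tpm1 and Actc1 are empty.

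Where a site recurred, it did so at nearly the same base. Summits from different libraries spread over 13 bp at the Tnnt2 3′ region (5 libraries), 6 bp at Tnnc1 (5 libraries), 13 bp at Acta1 (4 libraries), 5 bp at Tnni3 and 4 bp at the Tnnt2 5′ region (2 libraries each). At the Tnnt2 3′ region and at Tnnc1 all 5 peaks ended at the same base, 135850712 and 31207561. At Tnni3 both peaks began at 4521057, and at Acta1 3 of 4 ended at 123892553, while the peak of cKO 1 ran 154 bp further. The peaks of the Tnnt2 5′ region had no edge in common, differing by 1 bp at one side and 2 bp at the other. Summits lay 14 to 27 bp from the shared edge at the Tnnt2 3′ region, 15 to 21 bp at Tnnc1, 25 to 30 bp at Tnni3 and 8 to 21 bp at Acta1.

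Such shared edges were general in these lists. Among regions of the whole series with 1 peak in each of 5 libraries, 75.3% of 3361 had an edge common to all 5, and the median spread of summits was 12 bp. With 2 libraries the share was 83.7% of 7091 regions and the median spread 9 bp. With 4 libraries, an edge was common to at least 3 in 92.1% of 4156. Over all peaks the summit lay a median of 22 bp from the nearer edge. The thin filament regions therefore had the shape of recurrent regions elsewhere.

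**Figure D3:**
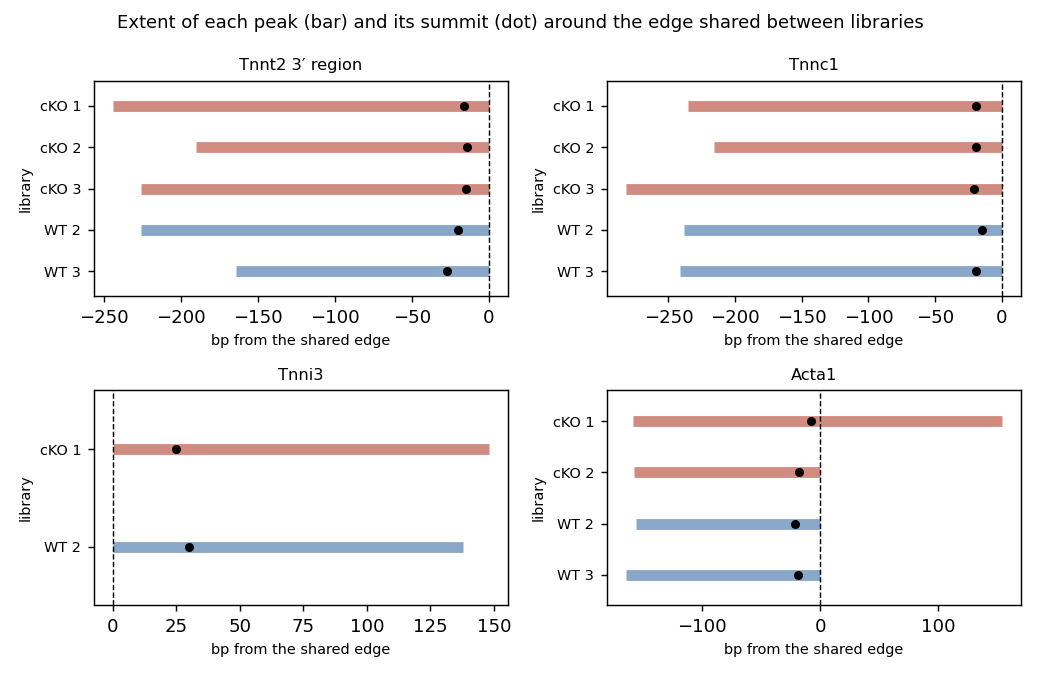
Bars give the extent of each peak and dots its summit, in bp from the edge that libraries share, along increasing coordinates, with cKO above WT. The 5 bars of the Tnnt2 3′ region and the 5 of Tnnc1 stop at 0, with summits 14 to 27 and 15 to 21 bp before it; at Acta1 the bar of cKO 1 runs 154 bp past 0.

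The strength of the regions was compared, as a description, with regions of the same recurrence. In all, 3293 merged regions were found in every library but WT 1. The mean percentile over the 5 lists was 93.9 at Tnnc1, above 84.8% of those regions, and 86.9 at the Tnnt2 3′ region, above 61.8%. The Acta1 region, at 56.7, was above 54.0% of the 87 regions with its pattern. Tnni3, at 70.3, was above 92.7% of 1320 regions found in cKO 1 and WT 2 alone, and the Tnnt2 5′ region, at 63.8, above 94.2% of 814 found in cKO 1 and cKO 2 alone. No further peak of any list lay within 20 kb of the Tnnt2, Tnnc1 or Acta1 spans.

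None of the 5 regions overlapped any of the 21263 promoter windows listed for protein-coding genes. For the 6 genes RefSeq (GRCm38.p6, the assembly of mm10) lists 7 promoter windows, 300 bases each, of which 250 precede the annotated start. None of the 7 held a peak in any library. Of all 21263 windows, 2.36% held a peak in at least 1 library, so an absence in 7 is close to the background. The Tnnc1 region ends 501 bp before the Tnnc1 window and lies 203 bp from that of Nisch, and the other regions are 1274 bp or more from any of the 21263. Below are the windows of Tnnc1, the nearest of the 7 to a break region, and of the 2 sarcomeric actin genes, of which Acta1 had a region and Actc1 had none (5′ to 3′ on the coding strand). Capitals mark matches to 3 motifs on either strand: the CArG box, the site of serum response factor, the TATA box (TATAAA) and the E-box (CANNTG).
Tnnc1, chr14:31208062-31208361, plus strand: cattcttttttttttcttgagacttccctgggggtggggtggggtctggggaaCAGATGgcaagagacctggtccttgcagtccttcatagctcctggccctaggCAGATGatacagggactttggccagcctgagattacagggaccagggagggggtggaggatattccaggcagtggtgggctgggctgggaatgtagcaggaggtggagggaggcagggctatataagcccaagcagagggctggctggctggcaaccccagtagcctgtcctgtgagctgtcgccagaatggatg
Acta1, chr8:123894726-123895025, minus strand: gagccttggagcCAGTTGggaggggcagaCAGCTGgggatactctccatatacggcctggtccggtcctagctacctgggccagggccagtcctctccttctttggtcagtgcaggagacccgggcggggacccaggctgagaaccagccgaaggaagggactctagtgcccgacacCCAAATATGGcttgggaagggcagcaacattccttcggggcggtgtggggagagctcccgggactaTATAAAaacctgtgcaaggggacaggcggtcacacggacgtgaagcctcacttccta
Actc1, chr2:114052826-114053125, minus strand: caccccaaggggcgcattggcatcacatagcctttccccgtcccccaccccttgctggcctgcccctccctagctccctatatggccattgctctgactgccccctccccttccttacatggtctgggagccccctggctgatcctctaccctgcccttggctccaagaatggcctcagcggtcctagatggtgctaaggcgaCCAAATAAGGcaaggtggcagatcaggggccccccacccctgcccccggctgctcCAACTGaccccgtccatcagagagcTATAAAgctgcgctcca

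Both actin windows hold a CArG box, CCAAATATGG in Acta1 and CCAAATAAGG in Actc1, and a TATAAA. From the annotated start, the TATAAA lay at bases -7 to -2 in Acta1 and 33 to 38 in Actc1. Whether either acts as a TATA box was not tested. A CArG box occurs in 1.52% and an exact TATAAA in 12.6% of the 21263 windows, and neither occurs in the windows of the other 4 genes. Near matches to TATAAA were not searched, such as the tatataag in the Tnnc1 window, so these 4 genes cannot be said to lack a TATA box. An E-box is in all 7 windows, and in 69.0% of all windows. No printed matches overlap each other. The actin gene with a break region and the one without thus had the same kinds of match.

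Of the 6 genes, 4 had a peak in cKO 1, 3 in cKO 2 and 2 in cKO 3, against 0 in WT 1, 4 in WT 2 and 3 in WT 3. The groups overlapped, with the highest count of 4 in cKO 1 and WT 2. Among all protein-coding genes the shares with a peak were 31.6%, 17% and 24.9% in the cKO lists and 1.63%, 20.2% and 12.1% in the WT lists. Among the 10339 genes as long as the members (3.02 to 27.1 kb) they were 18%, 7.26% and 12.6% in cKO and 0.358%, 10.2% and 5.79% in WT. The members' counts were above these shares in cKO 1, cKO 2, WT 2 and WT 3. In cKO 3 the 2 of 6 were near the share of all genes. With the gene span alone the Tnnc1 site drops out, so the members' count falls in every list but WT 1, to 1 in cKO 3. The shares above include the 1 kb extension and were not taken with the gene span alone, so those lower counts cannot be set beside them. No test was made of the members' counts against the shares, as the 6 genes were chosen with earlier results of these data known. Peak density over the 71.5 kb of extended spans was 69.9 peaks per Mb in cKO 1, 56.0 in cKO 2 and 28.0 in cKO 3, against 0 in WT 1, 56.0 in WT 2 and 42.0 in WT 3. Over whole chromosomes it was 11.2, 5.12 and 8.39 per Mb in cKO, and 0.505, 5.81 and 3.13 in WT. These densities cover unlike sequence, since whole chromosomes also take in the stretches between genes. No density was taken over genes of like length, and that of the members rests on at most 5 peaks per list.

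**Figure D4:**
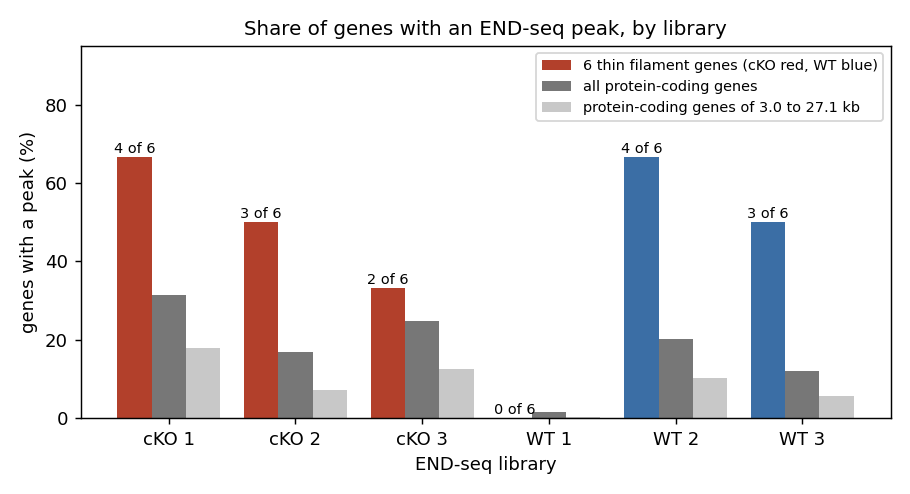
Bars give the percentage of genes with an END-seq peak in each library, cKO left of WT, for the 6 thin filament genes (coloured), all protein-coding genes (dark grey) and protein-coding genes of the same range of lengths (light grey). The coloured bar is the tallest in every library but WT 1, where 0 of 6 had a peak, and it stands for 4 of 6 genes in cKO 1 and in WT 2.

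The genotypes overlapped at these genes as a group. The number of members with a peak averaged 3 ± 1 in cKO against 2.33 ± 2.08 in WT, and the number of peaks 3.67 ± 1.53 in cKO against 2.33 ± 2.08 in WT (n = 3 each, SD). These differences of 0.667 and 1.33 are smaller than the SD within WT. Without WT 1 the difference in members with a peak was -0.5 and that in peaks 0.167. Without cKO 1 they were 0.167 and 0.667. Per 1000 peaks of the same list, the 6 genes held 0.168 in cKO 1, 0.293 in cKO 2 and 0.0896 in cKO 3, against 0 in WT 1, 0.259 in WT 2 and 0.361 in WT 3, a difference of -0.0227.

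Tnnt2, Tnnc1 and Acta1 had a peak in at least 2 of 3 cKO libraries, where 23.1% of protein-coding genes did, and the same 3 in at least 2 of 3 WT libraries, where 9.56% did. Without cKO 1, Acta1 was left with 1 cKO library, so 2 members met the cKO rule, and without WT 2 or WT 3 none met the WT rule. None of the 6 had a peak in all cKO and no WT library, a pattern of 1.43% of genes, and none had the reverse, a pattern of 0.00914%. The exact permutation test of peak number called 0 of 8383 genes (0%) at an adjusted p of 0.05, and 0 had an unadjusted p under 0.05, since 0.1 is the smallest p that 3 against 3 allow. When WT 1 was left out and the other lists were shortened to their 8320 strongest peaks, Tnnt2 and Tnnc1 kept a peak in all 5 lists, whereas Acta1 had one in 0 of 3 cKO lists and in both WT lists (exact permutation p = 0.1, the smallest that 3 against 2 allow). That pattern depends on the length chosen: the Acta1 peak of cKO 2 ranked 8650 by fold and was just left out, while the WT 3 list has 8320 peaks and was not shortened. With every list shortened to 1345 peaks, Tnnc1 alone of the 6 had peaks, in every list but WT 1.

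Among 27 other thin filament genes, 12 had a peak in at least 1 list, against 38.3% of all protein-coding genes. In at least 2 cKO libraries 6 had a peak, against the 23.1% above, and in at least 2 WT libraries 1 did, against 9.56%. The 6 numbered 1 without cKO 1 or without cKO 3. They are described next.

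Each of the 5 troponin genes of skeletal muscle had a peak in at least 1 list, where 38.3% of all protein-coding genes did. Most of the 5 had it in 1 list only. Tnni1, the slow skeletal troponin I gene 25.3 kb from Tnnt2, had 1 peak in cKO 1 and cKO 3 and 1 in WT 2, at a single region with folds of 20.05 and 18.1 in cKO and 27.1 in WT 2. Tnnt1, the slow skeletal troponin T gene 2329 bp from Tnni3, had 1 in cKO 1 and cKO 3, with folds of 17.6 and 12.4, and none in WT. Without cKO 1 the Tnnt1 site would rest on cKO 3 alone. The fast skeletal genes Tnni2 and Tnnc2 had a peak in cKO 1 alone and Tnnt3 in WT 1 alone, with folds from 6.22 to 8.92. These peaks were among the weaker ones of their lists, at percentiles 12.4 (Tnni2), 23.9 (Tnnc2) and 26.2 (Tnnt3).

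No tropomyosin gene had a peak, where 38.3% of all protein-coding genes had one in at least 1 list and most thus had none. Tpm2, Tpm3 and Tpm4, which encode the other tropomyosins, were empty in all 6 lists, as Tpm1 was. Of the 4 other actin genes, Actb, which encodes cytoplasmic beta-actin, had 1 peak in WT 3 with a fold of 6.26, and Acta2, Actg2 and Actg1 had none. Of the 6 actin genes examined, Acta1 was thus the one with peaks in more than 1 list. The uncertainty over reads that map to several actin genes applies to this contrast too.

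Of the 15 genes of proteins that bind, cap or remodel the filament, 6 had a peak in at least 1 list, a share near the 38.3% of all protein-coding genes. Cap2, which encodes an actin monomer-recycling protein and spans 148 kb, had 5 peaks in cKO 1, 3 in cKO 2 and 3 in cKO 3, against 0 in WT 1, 3 in WT 2 and 2 in WT 3. Its highest folds were 52.5, 37.5 and 46.2 in the cKO lists, and 39.3 and 25.9 in WT 2 and WT 3. These stood beside those of Tnnc1, in a gene far longer than any of the 6. Tmod3, a tropomodulin gene, had 1 peak in cKO 1, cKO 3 and WT 2, with folds of 17.1, 20.1 and 15.3. Neb, the nebulin gene, and Capzb, a capping protein gene, each had 2 peaks in cKO 1 and 1 in cKO 3 and none in WT, with highest folds of 7.60 and 7.85 for Neb and 8.99 and 13.7 for Capzb.

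Genes were also ranked by how closely the percentile of their strongest peak (0 where there was none) followed that of a member over the 6 libraries. Nisch matched Tnnc1 exactly, because the same peaks were assigned to both, and Pik3cb came next with a mean absolute difference of 0.707 percentile points. Nearest to Tnnt2 were Cfap44 and Myo1e, at 0.720 and 0.795 points. Setd1a and Mpzl3 were nearest to Tnni3, at 0.508 and 0.625. For Acta1 they were Gna13 and Pop5, at 3.62 and 4.41 points. A list without a peak at either gene adds 0 to the difference, so genes hit in the same lists come close by construction. Values for members hit in unlike numbers of lists, such as Tnni3 and Acta1, are therefore not comparable.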

How the data were processed

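END-seq peak lists of 6 libraries were analysed, grouped by title and genotype label. Each library has its own list in the narrowPeak layout of MACS, per the file headers. FastQC, DiffBind, SEACR and mm10 are named, with no roles or versions, in the submitters' processing notes; no aligner is named. A deposited peak has, per its header, the authors' fold over background (a linear ratio), −log10 p and q values, a score and a summit. The largest q was 0.00999 and all peaks were kept, except 96 to 142 per list on unplaced or mitochondrial sequences. Folds served for description and for ranking inside a list; a percentile is a peak's rank by fold in its list. Lists grow with depth and enrichment, which are unknown. The series' lamin A intervals, on another build, were not used here.

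Gene spans came from RefSeq for GRCm38.p6, which gives no exons, so exon and intron were not distinguished; strand came from its promoter table, in which all 6 symbols were matched. Overlap required 1 bp, and overlapping peaks were merged into regions. Coordinates are 1-based. Peak numbers were compared by exact permutation over 20 assignments of libraries, two-sided, for all genes with a peak, with Benjamini-Hochberg adjustment. The labels do not say more of the mice than their number, so p-values measure the spread between these libraries. The members and lists were chosen with earlier results of these data known. Genes named were the 6 members, other thin filament genes with a peak in at least 2 libraries of 1 genotype, the 2 genes most like each member, and Dnaaf3, whose span begins within 1 kb of a member; Nisch as neighbour, Actb, Tnni2, Tnnc2, Tnnt3 and the empty paralogues were named after their values were seen. Overlap, merging and permutation code was tested on simulated data. Alternatives were q at most 0.00001, lists of equal length, gene span alone, 5 kb extension, 50% overlap, merging within 1000 bp, scaling to list length, leaving out each library and a replicate block. Python 3.11.15, numpy 2.4.6, pandas 2.3.3 and matplotlib 3.10.9 were used.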

Additional observations from a re-analysis of the deposited data

How the results depend on the processing

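Of 186 alternative values, 151 were counted as the same. For a single gene this meant that the direction was kept, whatever the size of the change. For the group differences the move was also smaller than the spread between replicates, and counts moved by at most 1.5 times. Many of the 151 could not have changed. Examples are the counts of members with an adjusted p under 0.05, all values of Tpm1 and Actc1, and the differences under the replicate block. The tally is therefore no measure of stability. The q threshold, the 5 kb extension, 50% overlap and merging within 1000 bp moved no value beyond these limits. The q threshold could not act on the members, whose peaks all had a −log10 q of 16.3 or more. With lists of 1345 peaks, members in at least 2 cKO libraries, members in at least 2 WT libraries, recurrent regions and other thin filament genes in at least 2 cKO libraries each numbered 1, Tnnc1 being the member. With lists of 8320 peaks and no WT 1, the difference (cKO minus WT) was -1.5 in members with a peak and -0.833 in peaks, and 1 other thin filament gene was left. Per 1000 listed peaks the difference was -0.0227 for the 6 genes and -0.0110 for Tnnc1. The cause of these changes was not tested. Leaving out each library in turn gave differences from -0.5 to 1.5 in members with a peak and from 0.167 to 2.17 in peaks, 2 to 3 members in at least 2 cKO and 0 to 3 in at least 2 WT libraries, 3 to 5 recurrent regions and 1 to 6 other thin filament genes. The recurrent regions numbered 3 when cKO 1 was left out. The count of 0 members in at least 2 WT libraries came without WT 2 or without WT 3, where both remaining lists had to agree and 1 was WT 1. Peak numbers showed no pairing by replicate number: deviations of same-numbered libraries correlated at 0.0524, -0.111 and -0.0240 over 8383 genes. Such values cannot show whether same-numbered libraries were prepared together, which the labels do not state. The replicate block left every mean difference the same by construction (0.667 members with a peak, 1.33 peaks), and the exact sign-flip p was 0.5 for Tnnt2, where 0.25 is the smallest possible. These tests cannot pass 0.05, so their p-values say nothing on stability. Depth is unknown, and how far it limits weak sites was not measured.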
